A study of Xenopus laevis with 12 samples.

Results

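The heart transcription factors of the *Xenopus laevis* embryo were taken from the table of expected counts by name: every row whose identifier, without its ending .L or .S, is nkx2-5, tbx5, tbx20, hand1, hand2, gata4, mef2c, mef2d, isl3 or nppa. This gave 16 rows of 42638, for 9 of the 10 names. isl3 matched no row and was not analysed here. Many genes of this frog exist as a .L and a .S copy on related chromosomes, and 7 of the 9 names had both, while hand1 and tbx20 had a .L row only. The list was fixed by name, with earlier results of these data known.

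The 12 RNA-seq libraries were made from whole wild-type embryos at stage 25, with 15 embryos pooled per library and 3 libraries in each of 4 groups. Thioridazine, a drug that blocks dopamine receptors, was given at 90 µM between stages 12.5 and 25 to groups of 300 and to groups of 100 embryos, and the untreated embryos were kept in groups of 300 and of 100 in the same way. The labels say small and large, and the sizes 100 and 300 are those of the study's text. Each group holds 1 library of each letter A, B and C (samples 1, 2 and 3 in the titles), and what the letters stand for is not given in the sources used here. For its experiments in general the study describes embryos of one clutch within an experiment, while its methods describe a mix from separate mothers, split at random over treatments. It also describes independent repeats over several weeks. Whether the letters mark such repeats is not stated, and p-values measure the spread between these libraries. Pooling hides the spread between embryos, and in whole embryos fewer cells of a type and less RNA per cell cannot be told apart.

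The vertebrate heart arises from patches of lateral mesoderm that move together on the ventral side of the embryo. Their cells switch on a shared set of DNA-binding proteins before they make contractile protein: the homeodomain protein Nkx2-5, the T-box proteins Tbx5 and Tbx20, the zinc finger protein Gata4, the basic helix-loop-helix proteins Hand1 and Hand2, and the MADS-box proteins Mef2c and Mef2d. nppa encodes natriuretic peptide A, a hormone of heart muscle cells and a target of several of these factors. Few of them are restricted to the heart. Gata4 is also made in endoderm, Hand1 and Hand2 in lateral mesoderm and pharyngeal arches, Nkx2-5 in pharyngeal endoderm, and the Mef2 proteins in the muscle of the somites, so a whole-embryo level sums over these sites.

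The depth ranged from 3497198 to 7822395 expected counts per library (median 6018883). Values are CPM, counts divided by the library total after TMM scaling and brought to one common total. Of the 16 rows, 13 passed the filter of 1.8 CPM in at least 3 libraries, and the main tests below were fitted on the 21731 genes that passed. The fit of summed copies and some alternative settings used other sets of genes. tbx5.L passed it in 3 libraries, all of letter A, and tbx5.S, nppa.L and nppa.S did not pass. Each of the 12 libraries varied most like another library of its own letter, so fits with the replicate letter as a block are given where they add to a result.

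Most regulators of the list averaged above the filter, hand2 and mef2c came near it in some libraries, and tbx5 was near it on average. Several products of heart muscle were close to 0. Among the members, nkx2-5.S was measured at 13.5 to 24.7 CPM over the 12 libraries, tbx20.L at 9.14 to 27.2, hand1.L at 22.4 to 45.3, gata4.L at 15.0 to 36.8 and mef2d.L at 88.4 to 199.7. In their lowest libraries hand2.L was at 2.95 CPM, hand2.S at 1.18, mef2c.L at 2.36 and mef2c.S at 3.25. tbx5.L averaged 1.29 CPM and tbx5.S 1.14. nppa.L had no count in any library, where 3 counts of the 67428067 in all would be 0.0445 CPM. nppa.S had 5 counts in total and was at 0 in 8 libraries. Of the genes for contractile proteins of heart muscle, tnnt2.L, which encodes cardiac troponin T, had 4 counts in all libraries together, and myl7.S, an atrial myosin light chain, had 22. tnni3.L and tnni3.S, the copies for cardiac troponin I, had 24 and 6, and myh6.L, a cardiac myosin heavy chain, had 30.6. Only myh6.S passed the filter among these, at 0.753 to 2.85 CPM. Of the whole list of heart muscle proteins 13 of 29 rows passed, and some were abundant: atp2a2.S, a calcium pump, averaged 394 CPM, tpm1.L, a tropomyosin, 220.0 and tnnc1.S, a troponin C, 129.6, all from genes that other muscles also use. Below these, casq2.S averaged 54.5 CPM, mybpc3.L, a cardiac myosin-binding protein, 29.1 and myl4.S, an embryonic and atrial myosin light chain, 19.9, while mybpc3.S averaged 2.95. actc1.L, which encodes an actin of the heart that is also made in embryonic skeletal muscle, averaged 964 CPM.

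**Figure D1:**
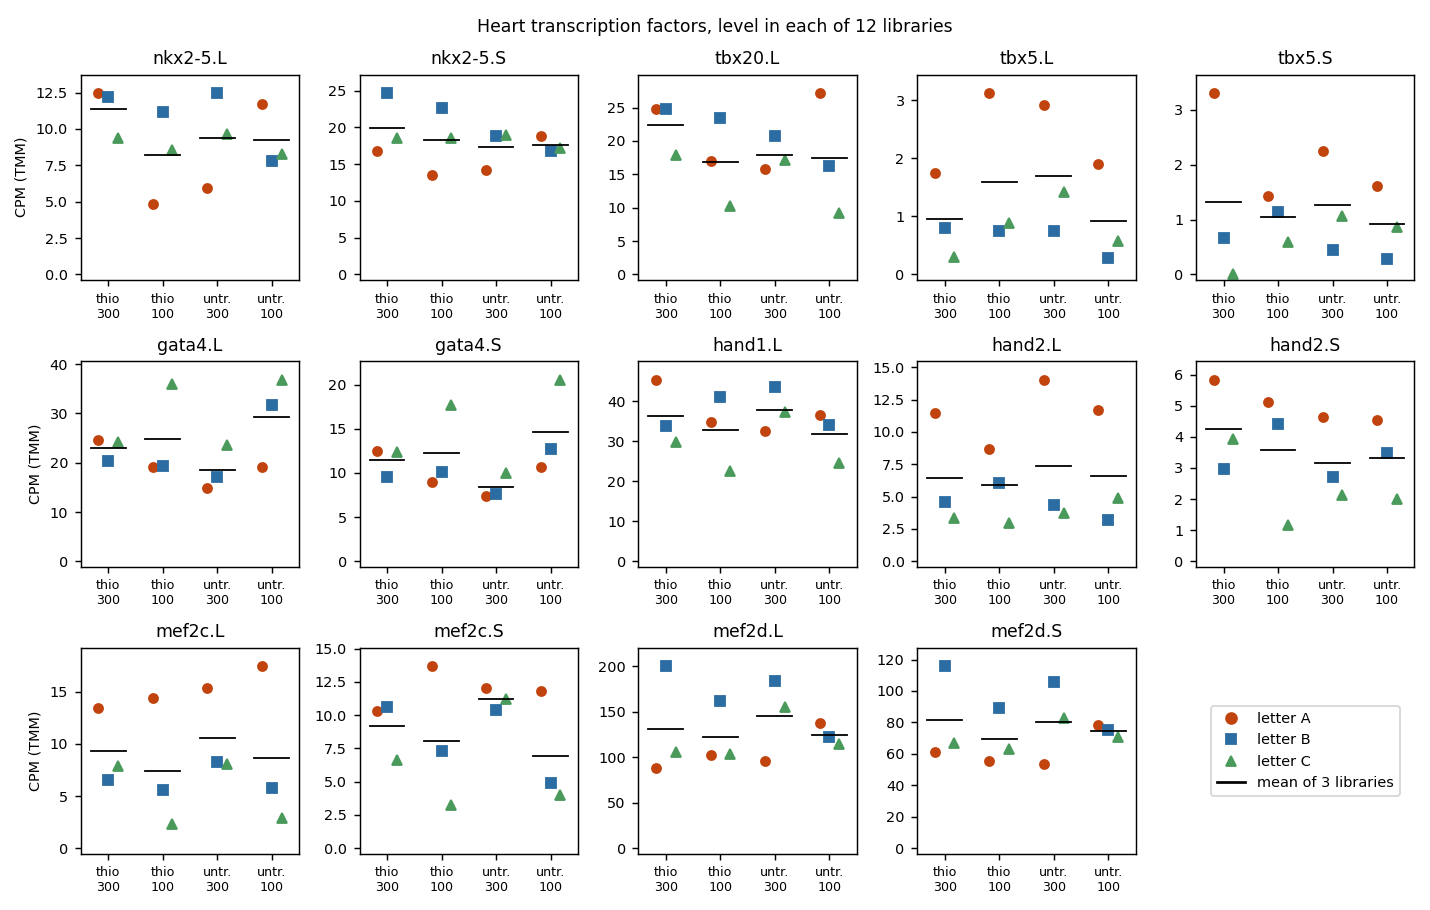
Level of 14 rows in each of the 12 libraries, as CPM with TMM scaling on a linear axis (thioridazine and untreated groups of 300 and 100 embryos, 3 libraries each, symbols for the letters, bars for the mean of 3 libraries). In hand2.L, hand2.S, mef2c.L, tbx5.L and tbx5.S the letter A libraries lie above those of B and C, and in these genes neighbouring groups overlap. Of these, tbx5.L passed the filter through letter A libraries alone and tbx5.S did not pass.

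The first question is whether the drug changed these genes. Averaged over both group sizes, none of the 13 members passed the test for thioridazine against untreated embryos (6 libraries against 6, edgeR's quasi-likelihood test, adjusted p of at least 0.9999 for every member), and none had an unadjusted p under 0.05, where 1.69% of all genes did. Over all genes 0.0874% passed the test, and DESeq2 and limma voom also called 0 members. The log2 fold changes of the members ran from -0.21 (mef2c.L) to 0.26 (hand2.S) with a median of -0.000672, and 6 of 13 were above 0. The median over all genes was -0.01. The 6 treated and 6 untreated libraries overlapped for every member, while 0.262% of all genes had no overlap.

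nkx2-5.S had the smallest p of the list in this comparison. In thioridazine-treated groups of 300 it was at 16.7, 24.7 and 18.5 CPM in letters A, B and C, against 14.2, 18.8 and 18.9 in untreated groups of 300. With thioridazine the groups of 100 had 13.5, 22.6 and 18.6 CPM, against 18.9, 16.8 and 17.1 untreated. These ranges overlap at both sizes. Its log2 fold change was 0.13 (SE 0.16, 95% interval -0.22 to 0.49, unadjusted p = 0.435 by edgeR), and with the replicate block the interval narrowed to -0.17 to 0.39.

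For nkx2-5.L the log2 fold change was 0.05 (95% interval -0.48 to 0.58), for tbx20.L 0.14 (-0.41 to 0.69), for hand1.L -0.000672 (-0.39 to 0.39) and for gata4.L 0.03 (-0.43 to 0.50). These 4 intervals all include 0. The less abundant or more variable members were known less well: for mef2c.L the interval ran from -1.22 to 0.79, for hand2.L from -1.17 to 0.81 and for tbx5.L from -1.34 to 1.23. With the block the standard errors of the 13 members were 0.131 to 0.345 instead of 0.164 to 0.592, and again none passed, where 0.433% of all genes did. mef2c.L was the member with one direction in every pair: it was lower with thioridazine in all 6 pairs of libraries that share a letter and a group size, by 0.03 to 0.32 on the log2 scale. It was picked from 13 members, with an unadjusted p of 0.652 by edgeR, and the share of all genes with such pairs was not counted. tbx20.L and hand2.S were each higher in 5 of 6.

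Within each group size the result was the same in count. In the groups of 300 no member passed for thioridazine against untreated embryos, and in the groups of 100 none did, where 0.0092% of all genes passed at either size. No member had an unadjusted p under 0.05 in these 2 comparisons, where 1.93% of all genes had one in the groups of 300 and 1.01% in the groups of 100. With the block 1 member, gata4.S in the groups of 300, had one, where 7.54% of all genes did. The 3 treated and 3 untreated libraries overlapped for all 13 members at both sizes, while 6.83% of all genes had no overlap in the groups of 300 and 3.64% in the groups of 100. The members' log2 fold changes ran from -0.78 (tbx5.L) to 0.45 (gata4.S) in the groups of 300 and from -0.27 (gata4.S) to 0.67 (tbx5.L) in the groups of 100. tbx5.L, with the widest spread, was at 1.75, 0.806 and 0.303 CPM in letters A, B and C of thioridazine-treated groups of 300, against 2.91, 0.753 and 1.43 in untreated groups of 300. Its counts were 1 to 22 per library, so these levels rest on few reads.

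**Figure D2:**
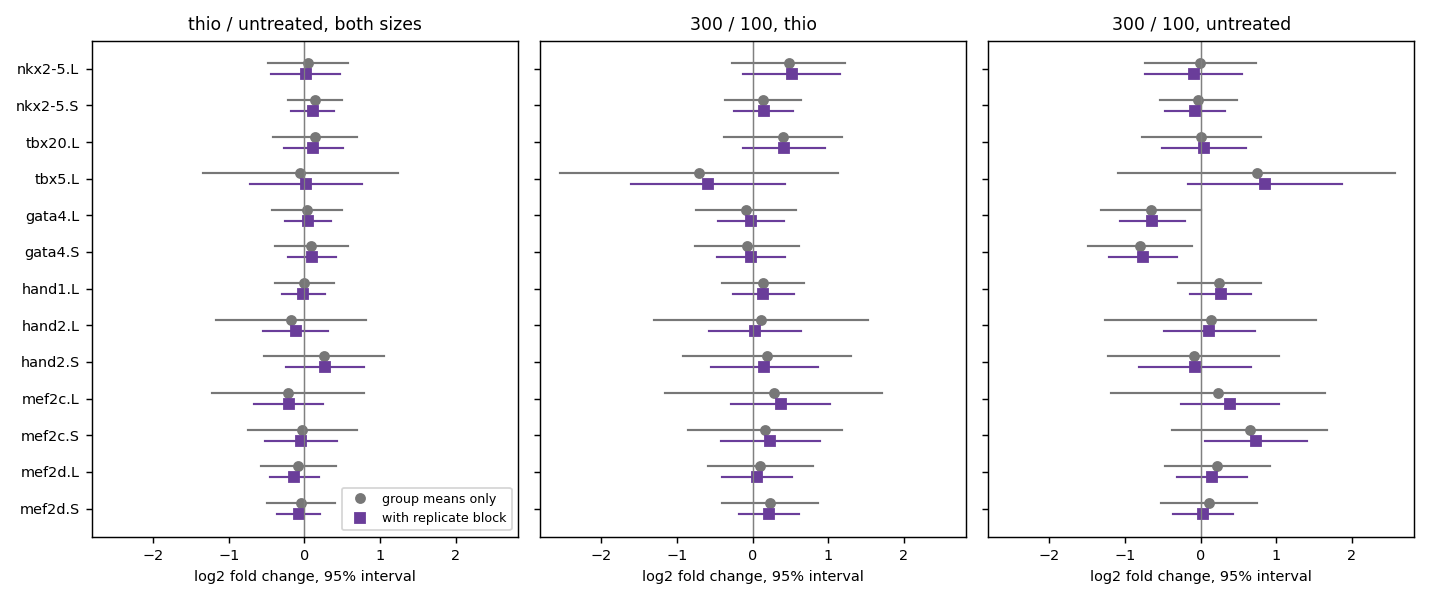
Log2 fold change and 95% interval of the 13 members that passed the filter, for thioridazine over untreated (both sizes averaged) and for groups of 300 over groups of 100 in each treatment. Grey circles come from the fit of group means and purple squares from the fit with the replicate block. In untreated embryos both gata4 copies lie left of 0, at -0.65 and -0.80, and no member passed the test over all genes.

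The second question is whether group size moved these genes. In untreated embryos no member passed the test for groups of 300 against groups of 100 (edgeR's quasi-likelihood test, 0% of all genes passed), 1 had an unadjusted p under 0.05, where 1.76% of all genes did, and DESeq2 and limma voom called none. Both copies of gata4 had their lowest mean in the untreated groups of 300 and their highest in the untreated groups of 100. gata4.S was at 7.42, 7.68 and 9.99 CPM in letters A, B and C of the untreated groups of 300, against 10.7, 12.7 and 20.6 in the untreated groups of 100. The sets do not overlap, which held for 1 of 13 members and for 5.22% of all genes. gata4.L was at 15.0, 17.0 and 23.5 CPM in the groups of 300, against 19.2, 31.8 and 36.8 in the groups of 100, and these sets overlap.

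The log2 fold change was -0.80 for gata4.S (SE 0.32, 95% interval -1.49 to -0.11, unadjusted p = 0.026, adjusted p = 0.9999 by edgeR) and -0.65 for gata4.L (SE 0.30, unadjusted p = 0.052). With the replicate block these were -0.76 (SE 0.21, adjusted p = 0.435 from edgeR) and -0.64 (SE 0.20, adjusted p = 0.46), and 3 members, these and mef2c.S, had an unadjusted p under 0.05, where 7.59% of all genes did. The gata4 copies share reads and are not separate results. Within the letters A, B and C, gata4.L was lower in the groups of 300 by 0.35, 0.89 and 0.64 and gata4.S by 0.51, 0.70 and 1.02 on the log2 scale. gata5 and gata6, related zinc finger genes of heart and endoderm, gave -0.60 (gata5.L, SE 0.31), -0.51 (gata5.S, SE 0.24), -0.44 (gata6.L, SE 0.29) and -0.42 (gata6.S, SE 0.17), none past the test. In a list of endoderm genes none of the 15 measured members passed, 0 lay above 0, and their median log2 fold change was -0.89. The summed level of that list was 1067 to 1567 CPM in untreated groups of 300, against 1762 to 2641 in untreated groups of 100. Other lists lay on the other side of 0 in this comparison, with 13 of 13 neural genes above 0 (median 0.41) and 15 of 17 neural crest and pharyngeal genes (median 0.30), none past the test. The part of these tissues in the levels of gata4 and mef2c was not tested.

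In untreated embryos the remaining 11 had log2 fold changes between -0.09 (hand2.S) and 0.74 (tbx5.L) for groups of 300 against 100. mef2c.S was at 12.1, 10.4 and 11.2 CPM in letters A, B and C of the groups of 300, against 11.9, 4.91 and 3.999 in the groups of 100. Its 300-embryo libraries sat close together, and in the groups of 100 letter A alone reached their level. The log2 fold change was 0.65 (SE 0.47), and 0.73 with the block (SE 0.31, unadjusted p = 0.0342, adjusted p = 0.631 from edgeR). mef2c.L was at 15.4, 8.28 and 8.03 CPM in the groups of 300, against 17.4, 5.78 and 2.86 in the groups of 100 (log2 fold change 0.23, SE 0.65). The untreated libraries differed in depth. Those of the groups of 300 had 7222013, 6720632 and 5496905 counts in letters A, B and C. Those of the groups of 100 had 6540861, 3550845 and 3701983. The part of depth in the gata4 and mef2c differences was not tested.

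In untreated embryos the count of members above 0 was lower in letter A than in B and C. In letter A 4 of 13 members were higher in the groups of 300 than in the groups of 100, with a median log2 difference of -0.35. In letter B 10 of 13 were higher (median 0.42) and in letter C 10 of 13 (median 0.22). Over all genes 50.7%, 50.9% and 50% of the differences were above 0 in the same pairs. tbx20.L shows it: it was at 15.8, 20.8 and 17.1 CPM in letters A, B and C of the untreated groups of 300, against 27.2, 16.2 and 9.14 in the untreated groups of 100. nkx2-5.L was at 5.96, 12.5 and 9.63 CPM in the untreated groups of 300, against 11.7, 7.80 and 8.28 in the groups of 100. Both genes had a log2 fold change near 0 in the fit of group means (0.01 and -0.00219), with letter A opposed to the others. With the replicate block the values were 0.04 and -0.09. Under thioridazine 9 of 13 members were higher in the groups of 300 in each of the letters A, B and C. The 13 rows include copies that share reads, and each of these counts rests on a pair of libraries. The untreated groups of 100 had 6540861 counts in letter A, against 3550845 in B and 3701983 in C. The part of depth in the untreated split between letters was not tested.

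Without the 4 letter A libraries, a choice made after seeing the data, no member passed in untreated embryos without the block, where 0.0046% of all genes did. With the block on letters B and C, 3 of 13 passed for groups of 300 against 100: gata4.L at -0.78 (SE 0.21, adjusted p = 0.0411 from edgeR), gata4.S at -0.90 (SE 0.25, adjusted p = 0.0480) and mef2c.S at 1.28 (SE 0.34, adjusted p = 0.042). Both gata4 copies share reads, so their calls are not separate results. In this fit 4.6% of all genes passed. It holds 2 libraries per group, and those of the untreated groups of 100 had fewer counts than those of the untreated groups of 300.

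In thioridazine-treated embryos the libraries of the groups of 300 and 100 overlapped for both gata4 copies and for all other members, while 3.76% of all genes had no overlap. gata4.S was at 12.5, 9.53 and 12.4 CPM in letters A, B and C of the groups of 300, against 8.97, 10.1 and 17.7 in the groups of 100 (log2 fold change -0.08, SE 0.31). gata4.L had a log2 fold change of -0.09 (SE 0.30). No member passed for groups of 300 against 100 under thioridazine (edgeR, 0% of all genes passed), and none had an unadjusted p under 0.05, where 0.727% of all genes did. Of the 13, 10 lay above 0, with a median of 0.14, where the median over all genes was -0.00642. Several of the 10 are copies of one gene that share reads. nkx2-5.L had the highest value, 0.48 (SE 0.35, 95% interval -0.27 to 1.23). It was at 12.5, 12.2 and 9.40 CPM in letters A, B and C of the groups of 300, against 4.84, 11.2 and 8.56 in the groups of 100, so letter A held most of the difference. tbx20.L was at 24.7, 24.7 and 17.9 CPM in the groups of 300, against 16.9, 23.4 and 10.3 in the groups of 100 (log2 fold change 0.40, SE 0.36), higher in all 3 letters.

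mef2c.L repeated in letter C what it did in the untreated embryos. Under thioridazine it was at 13.4, 6.58 and 7.88 CPM in letters A, B and C of the groups of 300, against 14.4, 5.53 and 2.36 in the groups of 100. The log2 difference in letter C was 1.60 with thioridazine and 1.38 without, while that in letter A was -0.10 with thioridazine and -0.18 without. mef2c.S had a log2 difference of 0.96 in letter C with thioridazine and 1.41 without. The counts behind the letter C libraries of the groups of 100 were 8 and 9.61 for mef2c.L, and 11 and 14.4 for mef2c.S. Under thioridazine the depth in letter C was 3497198 counts in the group of 300 and 3639288 in the group of 100.

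The effect of group size did not differ detectably between treatments for any member (group size by thioridazine interaction, edgeR, 0% of all genes and no member passed, none with an unadjusted p under 0.05, where 0.989% of all genes had one). The estimates for gata4 were 0.57 for gata4.L (SE 0.43) and 0.72 for gata4.S (SE 0.45, 95% interval -0.25 to 1.69). With the replicate block, the 3 members with an unadjusted p under 0.05, where 5.41% of all genes had one, were gata4.L, gata4.S and tbx5.L, and the smallest adjusted p of the list was 0.895. The gata4 copies share reads.

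**Figure D3:**
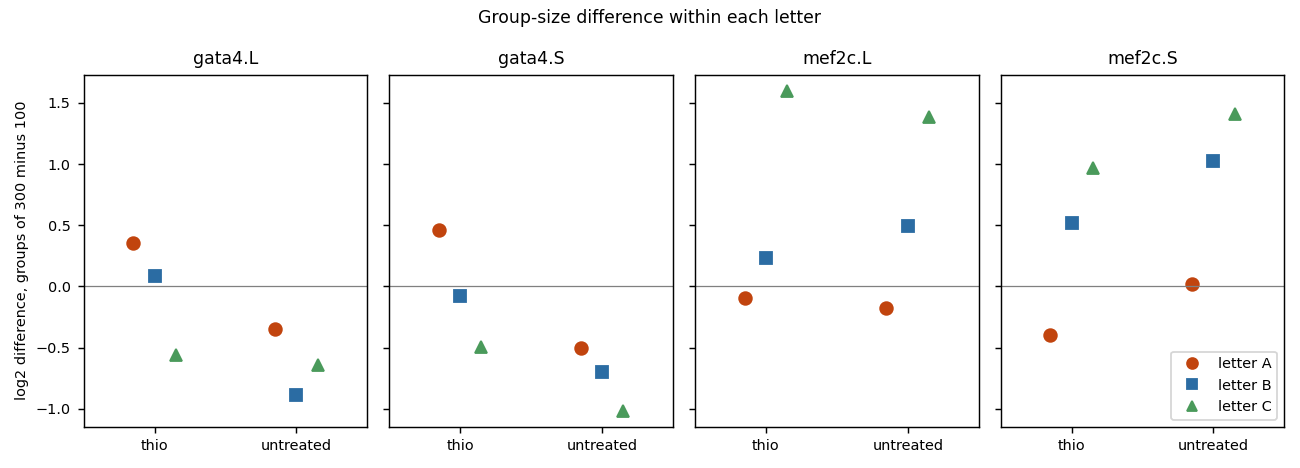
Log2 difference between groups of 300 and groups of 100 within each letter, for both copies of gata4 and mef2c, in thioridazine-treated and untreated embryos (1 point per pair of libraries). In untreated embryos all 6 gata4 points lie below 0, from -1.02 to -0.35, and the mef2c points of letter C lie at 0.96 to 1.60 over both treatments.

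The members differed most between the letters. With the 4 groups held in the model, letter A was compared with the mean of B and C over 4 and 8 libraries. Of the 13 members 5 were higher and 1 lower in letter A (adjusted p under 0.05, edgeR's quasi-likelihood test), where 40.8% of all genes passed, so the share of members is close to that of all genes. tbx5.L entered the test only through its letter A libraries and had to differ, and 5 of the other 12 members passed. Both copies of hand2 and of mef2c are among these 5, so they are not separate genes.

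hand2.L, from a regulator of heart and pharyngeal arch development, was at 11.5, 8.68, 14.0 and 11.7 CPM in the letter A libraries (thioridazine 300, thioridazine 100, untreated 300 and untreated 100). In the same groups it was at 4.57, 6.03, 4.36 and 3.18 CPM in letter B and at 3.33, 2.95, 3.75 and 4.86 in letter C. All 4 letter A libraries lay above all 8 others. It was 2.73-fold higher in letter A (log2 fold change 1.45, SE 0.20, adjusted p = 7.08e-05 from edgeR). hand2.S was at 4.54 to 5.84 CPM in letter A, against 1.18 to 4.40 in letters B and C, and was higher (log2 fold change 0.85, SE 0.24, adjusted p = 0.0123 from edgeR). These levels rest on 10 to 106 counts per library for hand2.L and on 4 to 36.02 for hand2.S.

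mef2c.L was at 13.4 to 17.4 CPM in letter A, against 2.36 to 8.28 in letters B and C, again without overlap (log2 fold change 1.39, SE 0.21, adjusted p = 1.88e-04 from edgeR). mef2c.S was at 10.3 to 13.7 CPM in letter A, against 3.25 to 11.2 in B and C (log2 fold change 0.76, SE 0.22, adjusted p = 0.0146 from edgeR), with overlap. tbx5.L averaged 2.43 ± 0.699 CPM (SD, n = 4) in letter A and 0.724 ± 0.362 (SD, n = 8) in letters B and C. tbx5.S, below the filter, averaged 2.15 ± 0.851 and 0.633 ± 0.386 in the same sets. Without tbx5.L, 3 of 12 members (hand2.L, hand2.S and mef2c.L) had no overlap in this direction, where 12.6% of all genes had none. hand2.L and hand2.S are copies of one gene. No member lay below without overlap, where 8.19% of all genes did.

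mef2d, the other MADS-box gene of the list, went the other way. mef2d.S was at 61.5, 55.5, 53.4 and 78.1 CPM in the letter A libraries (thioridazine 300, thioridazine 100, untreated 300 and untreated 100), against 62.8 to 115.6 in letters B and C. It was lower in letter A (log2 fold change -0.41, SE 0.14, adjusted p = 0.0308 from edgeR). mef2d.L had the same size of difference without passing (-0.41, SE 0.16, adjusted p = 0.0612). The call on mef2d.S was lost in 8 of the 12 fits that left out 1 library, where its log2 fold change stayed between -0.42 and -0.30.

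The single copies of nkx2-5, tbx20, hand1 and gata4 did not pass between letters, while the summed copies of gata4 did (-0.40, adjusted p = 0.0319 from edgeR). The log2 fold change of letter A over B and C was -0.25 for nkx2-5.L (SE 0.22), -0.31 for nkx2-5.S (SE 0.14), 0.30 for tbx20.L (SE 0.19), 0.18 for hand1.L (SE 0.14), -0.39 for gata4.L (SE 0.15, adjusted p = 0.051 from edgeR) and -0.31 for gata4.S (SE 0.16). The 95% interval of hand1.L, -0.12 to 0.48, lies below that of hand2.L, 1.03 to 1.87. The difference between these genes was not tested.

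Between letters B and C no member passed (edgeR's quasi-likelihood test, DESeq2 and limma voom), where 2.44% of all genes did by edgeR, and 6 of 13 had an unadjusted p under 0.05, where 18.5% of all genes did. These 6 were tbx20.L (0.65), mef2d.L (0.49), mef2d.S (0.45) and hand1.L (0.42), higher in B on the log2 scale, and gata4.L (-0.47) and gata4.S (-0.59), lower in B. The copies of mef2d share reads, as do those of gata4, so these 6 rows are not separate results. Of the 13 members 10 were above 0, several of them copies of one gene, and the others were both gata4 copies and tbx5.L. Leaving out 1 untreated library of the groups of 100 brought members past the threshold: tbx20.L without letter A, and mef2d.L and mef2d.S without letter B. The number of all genes past it also moved when 1 library was left out, over the range given at the end. The share of all genes in each of these fits is not given here.

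**Figure D4:**
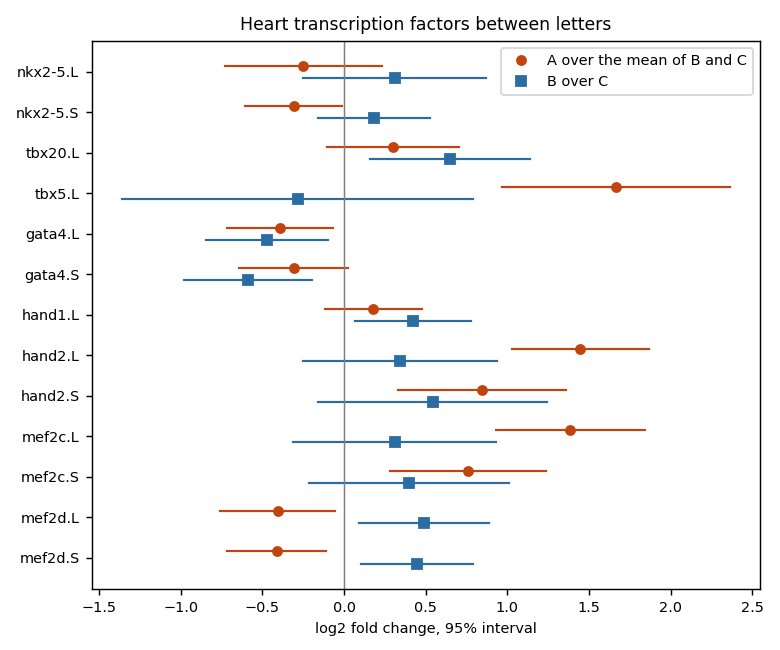
Log2 fold change and 95% interval of the 13 members between letters, with the groups held: orange circles for letter A over the mean of B and C, blue squares for B over C. hand2 and mef2c lie at 0.76 to 1.45 for letter A, and mef2d at -0.41. tbx5.L, at 1.67, passed the filter through letter A libraries alone and had to differ.

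Other genes varied with the letters as well, and the counts that follow stand against 22.8% of all genes higher and 18% lower in letter A. Rows that passed the filter through letter A alone were not set apart, in the lists or among all genes. The summed level of the 23 rows of a skeletal muscle list was 4270 to 5597 CPM in letter A, against 2975 to 3466 in letter B and 2615 to 3315 in letter C. Of its 21 measured genes 13 were higher and 4 lower in letter A, with a median log2 fold change of 0.70. The Mef2 proteins also act in this muscle, and the part of muscle RNA in the mef2c difference was not tested. The endoderm list, of the tissue that also makes Gata4, had 0 higher and 7 lower of 15, with a median of -0.25, and its sum was 1067 to 1762 CPM in letter A, against 1192 to 1870 in B and 1567 to 2714 in C. Its part was not tested either. Neural crest and pharyngeal genes had 5 higher and 2 lower of 17 (median 0.07), blood and endothelial genes 7 higher and 2 lower of 14 (median 0.43), and neural genes 6 higher and 0 lower of 13 (median 0.46). The median over all genes was 0.02. Depth was 5147104 to 7222013 counts in letter A, against 3550845 to 7822395 in B and 3497198 to 5496905 in C.

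Of the genes for heart muscle proteins, 13 of 29 rows passed the filter, 1 row had no count in any library, and 9 of the 13 were higher and 0 lower in letter A (median log2 fold change 0.69), where 22.8% of all genes were higher. Low rows were among the 9, such as myl3.L (mean 2.33 CPM, log2 fold change 1.29) and mybpc3.S (mean 2.95 CPM, 1.62). Such rows can pass the filter through letter A alone and then have to differ, which was not checked for them. The 9 also included mybpc3.L, a cardiac myosin-binding protein, at 0.96 (SE 0.15), myl4.S, an embryonic and atrial myosin light chain, at 1.48 (SE 0.13), and actc1.L at 0.33 and actc1.S at 0.49, while myh6.S was at 0.02 (SE 0.29). The call on actc1.L was lost in 9 of the 12 fits that left out 1 library, where its log2 fold change stayed between 0.27 and 0.36. myl4 and actc1 can also be made in embryonic skeletal muscle. tnnc1.S (0.98) and tpm1.L (0.69), also higher in letter A, are from genes that other muscles use too. atp2a2.S (-0.21, SE 0.12) and tnnc1.L (-0.61, SE 1.04) lay below 0 without passing. The part of skeletal muscle RNA in these values was not tested. For thioridazine against untreated embryos none of the 13 passed, with a median of -0.14 and 2 above 0.

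Among 40 rows of other heart regulators, 32 passed the filter. None passed for thioridazine against untreated embryos (median log2 fold change 0.02, 18 above 0) or for groups of 300 against 100 in untreated embryos (median 0.01, 17 above 0). Between letters 3 were higher and 7 lower in letter A (median -0.07), where 22.8% of all genes were higher and 18% lower. The Gata factors of the heart and endoderm did not share a direction: gata6.L was lower in letter A (log2 fold change -0.58, SE 0.14, adjusted p = 0.00384 from edgeR), and gata6.S (0.18, SE 0.11), gata5.L (0.27, SE 0.14) and gata5.S (0.25, SE 0.12) did not pass. The counts of both gata6 copies were not whole in any library, so the division between them is an estimate. The part of this division in the gata6.L value was not tested. mef2a.S, from another Mef2 gene, was higher (0.57, SE 0.16, adjusted p = 0.0113), a call lost without the letter A library of either thioridazine group (adjusted p = 0.0646 and 0.0639 by edgeR), and mef2a.L was at -0.04 (SE 0.13). isl1.L, a LIM homeodomain gene of heart progenitors, was at -0.09 (SE 0.12) and isl1.S at -0.20 (SE 0.13). tbx2.L and tbx2.S, T-box repressors of the non-chamber heart, were at -0.22 and -0.12, and tbx3.L and tbx3.S at -0.13 and -0.24, none past the test.

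The order of the 4 group means differed from gene to gene. Thioridazine-treated groups of 300 had the highest mean of nkx2-5.L, nkx2-5.S, tbx20.L, hand2.S and mef2d.S. Untreated groups of 300 had that of hand1.L, hand2.L, mef2c.L, mef2c.S, mef2d.L and tbx5.L, and untreated groups of 100 that of both gata4 copies. For no member were neighbours in this order free of overlap, and the share of all genes with such neighbours was not counted. The highest mean was 1.15 times the lowest for nkx2-5.S, 1.19 times for hand1.L and 1.84 times for tbx5.L.

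The copies of several pairs shared reads. In the 6 pairs other than nppa, which has too few counts to show it, the sum of .L and .S was a whole number in 12 of 12 libraries (within 0.005), while mef2c.L alone was whole in 1, nkx2-5.L in 2, mef2d.L in 3 and gata4.L in 4. The division within a pair is thus an estimate and the sum is not. hand2.L was whole in 11 libraries and tbx20.L in 12. Over the 12 libraries the log2 CPM of the copies correlated at r = 0.72 to 0.96 in the 5 pairs with both copies past the filter, as a description of libraries that share letters. With the letter means removed r was 0.14 for hand2, where it was 0.72 with them, and 0.77 to 0.92 for the other 4 pairs. The .L copy held 64 to 71.4% of the counts of gata4, 59 to 65.3% of mef2d and 26.4 to 42.8% of nkx2-5, with no correction for the length of the copies. Its share of mef2c was 38.4 to 59.4%. Summed over libraries it was 55.7% of mef2c in letter A and 43.7% in letters B and C, and 69.9% and 59.5% of hand2.

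**Figure D5:**
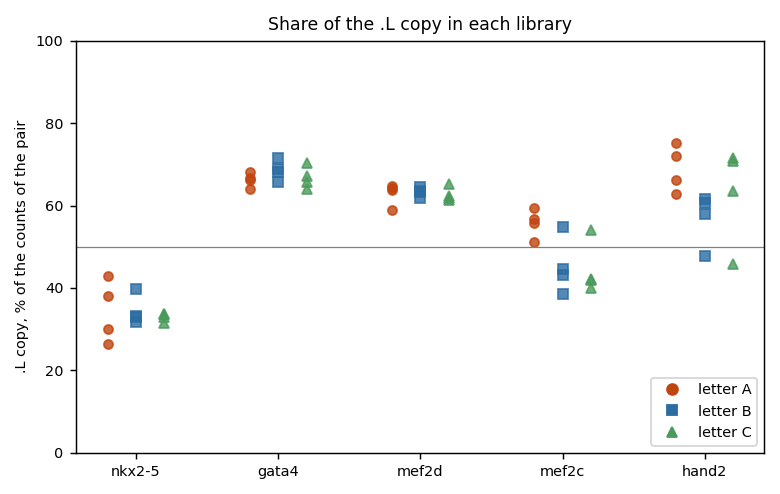
Share of the .L copy in the counts of its pair in each of the 12 libraries, in percent, with the letters as symbols and a line at 50%. The .L copy holds more than the .S copy in all libraries for gata4 and mef2d and in none for nkx2-5.

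With both copies summed, a choice made after seeing the data, 8 genes could be tested. Summed tbx5 reached the filter in the 4 letter A libraries and in 2 others, so it could enter through letter A alone, and its log2 fold change of 1.64 (SE 0.30) is given as a value only. Of the other 7 genes 2 were higher in letter A, hand2 (log2 fold change 1.21, SE 0.18) and mef2c (1.06, SE 0.21), and 2 lower, gata4 (-0.40, SE 0.14, adjusted p = 0.0319 from edgeR) and mef2d (-0.44, SE 0.16, adjusted p = 0.0396). In this fit 42.4% of the 16298 genes tested passed. The sum of gata4 had a log2 fold change of -0.70 (SE 0.30) for untreated groups of 300 against 100.

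The genes most like 4 of the members were sought among the 21731 genes by the correlation of log2 CPM over the 12 libraries, which share their letters. For gata4.L they were krtcap3.L (r = 0.98), cadps2.S (0.96) and LOC503674 (0.96). For tbx20.L they were slc6a3.S (0.94), tcaf1.L (0.94) and gpc4.S (0.94), for nkx2-5.L vgll3.L (0.91), tgif2.S (0.90) and spry1.S (0.90), and for hand1.L LOC108704044 (0.91), LOC121395423 (0.90) and ap1g1.S (0.90). These are descriptions, being the highest of many values. spry1 encodes an inhibitor of fibroblast growth factor signalling and slc6a3 the dopamine transporter.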

How the data were processed

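The authors' reads were trimmed (fastp), then mapped to rRNA by Bowtie2 and to the genome by STAR, and they deposited RSEM expected counts per gene (25.7% of the values not whole) and a table of log2 CPM after a filter, TMM and voom. Tool versions and STAR's genome build are not given in sources used here. A figure legend of the study states the dose and the stages of treatment differently from the labels. The study's methods also give a later stage for the end of treatment than its results do.

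Expected counts were rounded, filtered at 1.8 CPM in at least 3 libraries and normalized by TMM, leaving 21731 of 42638 genes. They were tested with edgeR 4.0.16 in R 4.3.3 (quasi-likelihood, robust, Benjamini-Hochberg adjustment over all genes, threshold 0.05) on the group means of all 12 libraries. Letters were compared with group and letter in the model. Each SE is the fold change over the root of F, and 95% intervals from the SE and its degrees of freedom. Correlations used log2 CPM with a prior count of 2, as did differences within letters.

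After group means were subtracted, the 18 same-letter pairs had correlations of 0.282 to 0.769, and the letters were therefore used as a block in alternative fits. The main tests of treatment and size did not use this pairing. Duplicated libraries were not found (lowest chi-square per gene 2.99). The fits were tested on simulated data. Alternatives used DESeq2 1.42.0, RLE, no filter, limma 3.58.1 with and without 2 surrogate variables (sva 3.50.0), the deposited log2 table, the replicate block, and each library left out. Settings without letter A, DESeq2 with the block and summed copies were chosen after seeing the data.

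The genes named were all copies of the members, fixed subsets of 2 heart lists, and the 3 genes most correlated with each of 4 members. mybpc3.L, myl4.S and the other heart muscle rows named outside these subsets were chosen after their values were seen. Members and lists were chosen with earlier results of these data known. RefSeq's Xenopus_laevis_v10.1 table, used for names only, held all 16 identifiers. A planned promoter search was not run, since no sequence was used here.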

Additional observations from a re-analysis of the deposited data

Results flagged for a closer look

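Thioridazine minus untreated had opposite directions at the 2 group sizes for both copies of gata4. gata4.L was higher with thioridazine in 3 of 3 pairs of libraries in the groups of 300 and in 0 of 3 pairs in the groups of 100, and so was gata4.S. The share of all genes with this pattern was not counted. Both copies had their highest mean in the untreated groups of 100 and their lowest in the untreated groups of 300. These are the untreated libraries of the size comparison above, so the pattern is not separate from it. The difference between the responses was 0.57 on the log2 scale for gata4.L (SE 0.43, unadjusted p = 0.212) and 0.72 for gata4.S (SE 0.45, unadjusted p = 0.13), with an adjusted p of 1 for each from edgeR's quasi-likelihood test, so it did not pass. For gata4.L the differences in letters A, B and C were 0.70, 0.26 and 0.04 in the groups of 300 and -0.01, -0.71 and -0.03 in the groups of 100, so 3 of the 6 were close to 0. For gata4.S they were 0.72, 0.30 and 0.31 in the groups of 300 and -0.24, -0.33 and -0.21 in the groups of 100. The copies share reads. Of 15 endoderm genes 14 were above 0 for thioridazine against untreated in the groups of 300 and 0 in the groups of 100, none past the test, and their part in these values was not tested.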

How the results depend on the processing

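The count of members past the threshold was 0 for thioridazine against untreated embryos (averaged and at each size), for groups of 300 against 100 under thioridazine and for the interaction, in every alternative and with each library left out. For groups of 300 against 100 in untreated embryos it was 0 except with the replicate block on letters B and C alone, where it was 3, with both gata4 copies among them. For letter A against B and C it was 6, where 40.8% of all genes passed. tbx5.L, which had to differ, is among the 6. The count was 4 to 8 when 1 library was left out and 5 to 9 under the other alternatives, given without the shares of all genes in those fits. For letter B against C it was 0, where 2.44% of all genes passed, with 0 to 2 when 1 library was left out. The 2 calls that came without untreated 100 replicate 2 were on mef2d.L and mef2d.S, copies that share reads. The replicate block changed no call on a member (0 in all 6 comparisons of treatment and size). Fits without 1 letter A library lost mef2c.S (thioridazine 100 or untreated 100) or hand2.S (untreated 300). Over all genes, the count for thioridazine averaged over sizes was 19, with 50 by DESeq2, 94 with the block, 127 with surrogate variables, 72 with the block on letters B and C, 120 by DESeq2 with the block, and 2 to 18 with 1 library left out. For untreated groups of 300 against 100 it was 0, with 1 by DESeq2, 32 by DESeq2 with the block and 1000 with the block on letters B and C. For thioridazine in the groups of 300 it was 2, with 27 by DESeq2, 1 by limma voom, 48 with surrogate variables, 56 with the block, 13 without letter A, 49 with the block on letters B and C and 93 by DESeq2 with the block, and in the groups of 100 it was 2, with 25, 47, 39, 15, 41 and 52 in the same settings other than limma voom. For groups of 300 against 100 under thioridazine it was 0, with 3 by DESeq2 and 1 with the deposited log2 table, and for the interaction 0, with 1 by DESeq2 and 2 with the block on letters B and C. For letter B against C it was 530, with 871 without the filter and 209 to 1124 with 1 library left out. No member's call reversed. The cause of these differences was not tested. Few counts limit tbx5, hand2 and mef2c, and no interval covers more than the spread between these libraries.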
